A study of Mus musculus with 15 samples.

Results

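Immediate early genes are switched on within minutes when a neuron is active or a cell is stimulated, without new protein synthesis. The 10 genes described here, *Fos*, *Fosb*, *Jun*, *Junb*, *Egr1*, *Egr3*, *Npas4*, *Nr4a1*, *Arc* and *Dusp1*, were chosen by name from this class, and each was found once among the 38561 Ensembl genes of the count tables by its GENCODE M21 symbol. The samples are Purkinje cells (PCs) cut from cerebellar sections of mice labelled C56/BL6 (C57/BL6 in the study's methods) by laser capture microdissection, in which chosen cells are lifted out under a microscope. PCs were collected at postnatal day (P) 0, 4, 8, 14 and 21, with 3 biological replicates per time point and 15 libraries in all. The methods describe male animals, with individual PC soma collected from P4 on and clusters of PCs at P0, where single cells were hard to isolate. The question was how far each of these genes changed over the first postnatal weeks, and how far its replicates differed.

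Immediate early genes are induced by calcium entry and growth factor signalling, through kinases that activate the transcription factors CREB, SRF and its Elk partners, and MEF2. Their products are transcription factors of the Fos, Jun, EGR, NR4A and bHLH-PAS families, together with effectors such as the synaptic protein Arc and the MAP kinase phosphatase Dusp1. Fos proteins bind DNA only as dimers with Jun proteins, forming the factor AP-1. In the cerebellum they are widely used as markers of recent activity, and in resting tissue their RNA is usually scarce and short-lived.

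The deposited values were whole-number counts of reads per gene, between 3409371 and 7814951 counts on genes per library. Levels are given as CPM, reads of a gene per 1000000 counts on genes after TMM scaling (edgeR's correction of library sizes for composition), and 3 counts in a library correspond to 0.384 to 0.880 CPM before this scaling. A gene without a read in a library lies below this floor, which covers counting error only. Markers of PCs were present in all libraries, and their sum over 6 genes rose from 5326 ± 736 CPM (SD, n = 3) at P0 to 42890 ± 5282 at P21. Markers of other cells were present too. The 8 Bergmann glia and astrocyte markers summed to 4652 ± 856.5 CPM at P0, and lay between 4126 ± 779 at P21 and 9144 ± 866 at P8. The 5 oligodendrocyte markers summed to between 22.3 ± 11.8 at P0 and 569 ± 241 at P21, and the 2 granule neuron markers to between 53.6 ± 43.3 at P4 and 225 ± 122 at P14. The 3 vascular markers summed to between 23.7 ± 10.3 CPM at P21 and 75.6 ± 43.4 at P0, and the 4 microglial markers to between 3.42 ± 4.05 at P0 and 20.4 ± 3.01 at P8. In RNA of many cells, fewer expressing cells and less RNA per cell cannot be told apart.

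The 10 genes fell into 3 tiers of detection in these libraries. *Jun* and *Dusp1* had reads in all 15 libraries. *Egr1* had reads in 12 libraries, and *Fos* and *Nr4a1* in 11 each. *Junb* had reads in 6 libraries, *Npas4* in 5, *Arc* in 4 and *Fosb* in 3, and *Egr3* had no read in any of the 15. The number of the 10 genes with a read was between 3 and 5 in each P0 and P4 library, between 5 and 7 at P8, and 6 or 7 in each P14 and P21 library. In total, the 10 genes took 51.3 ± 12.9 CPM (SD, n = 3) in the P0 libraries. The sum was lower at P4, with 24.7 ± 9.14, and reached 34.7 ± 14.6 on P8, 61.9 ± 52.0 on P14 and 86.8 ± 22.9 on P21. The sum was largely *Jun* at P0 and largely *Fos* at P21.

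**Figure D1:**
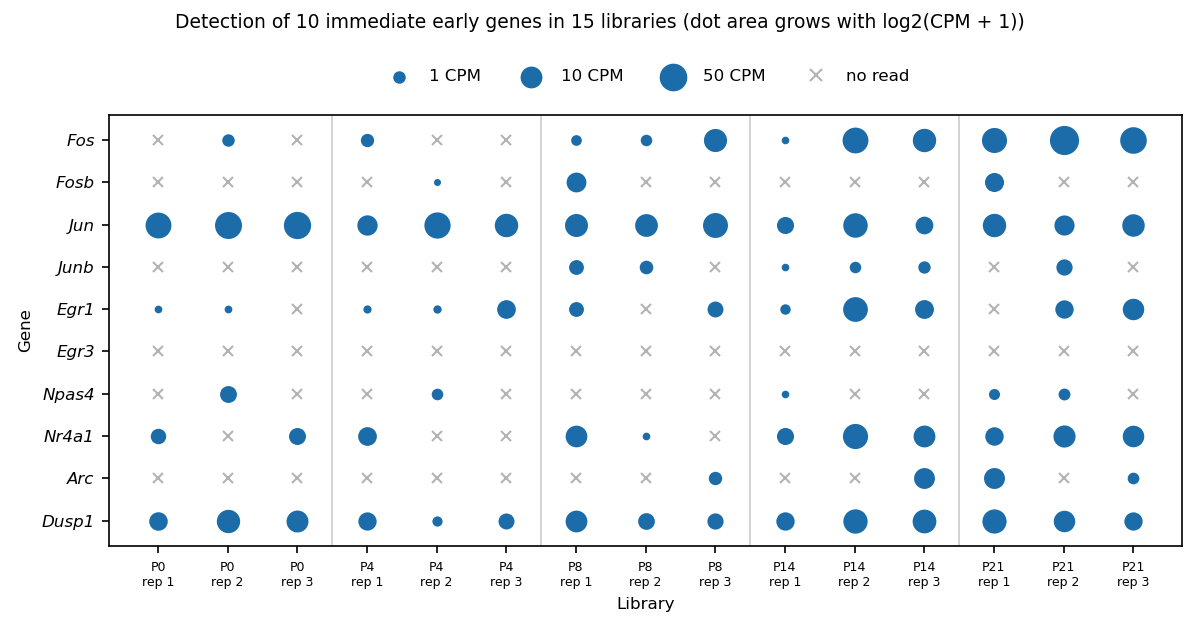
Detection of the 10 immediate early genes (rows) in the 15 libraries (columns, ordered by postnatal day and replicate). Dot area grows with log2(CPM + 1) and a grey cross marks a library without a read. *Jun* and *Dusp1* have a dot in all 15 libraries, *Egr3* in none, and the 6 P0 and P4 libraries hold no dot for *Junb* or *Arc*.

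Trends with postnatal day were tested in edgeR by quasi-likelihood against numeric age in days, over the 14293 genes with enough counts to pass its filter, and p-values were adjusted by Benjamini-Hochberg over all of them. Slopes are differences in log2 level for each day of age. Of the 10 genes, *Fos*, *Jun*, *Egr1*, *Nr4a1* and *Dusp1* passed the filter, and the other 5 were given no test. *Fos* rose and *Jun* fell at an adjusted p below 0.05. Among all genes tested, 12.1% rose and 14.1% fell, 26.2% together. A gene with reads at few time points passed the filter only through the time points where it was high, so the 2 calls among 5 tested genes are not read as a property of the class. No gene of the 10 separated the 6 P0 and P4 libraries fully from the 6 P14 and P21 libraries. Of all genes with a count, 5.71% were higher in every P14 and P21 library and 4.99% were lower. At such shares, the lack of a separated gene among 10 is not read as a property of the class. *Egr3*, without a read, could not separate.

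*Fos* (ENSMUSG00000021250, chromosome 12 of GRCm38, 85473890 to 85477273, plus strand) encodes the AP-1 subunit c-Fos and is the most widely used activity marker of the group. It was nearly absent at P0 and P4 and was the most abundant of the 10 genes at P21. At P0 its level was 0, 0.99 and 0 CPM in replicates 1 to 3, and at P4 it was 1.22, 0 and 0. At P8 it was 0.604, 0.762 and 13.9 CPM, at P14 0.184, 29.3 and 14.95, and at P21 23.7, 79.1 and 36.8. Every P21 library stood above every P0, P4 and P8 library, and the share of all genes separated in this way was not counted. P14 replicate 1, with 1 read, lay among the youngest samples. The mean was 0.330 ± 0.571 CPM (SD, n = 3) for P0 and 0.408 ± 0.706 for P4. It then climbed through 5.09 ± 7.63 on P8 and 14.8 ± 14.5 on P14 to 46.5 ± 29.0 on P21. The SD exceeded the mean up to P8 and stayed below it on P14 and P21. The 6 P0 and P4 libraries held 10 reads of *Fos* together and the 6 P14 and P21 libraries 907. Its log2 level rose by 0.35 a day, with a standard error of 0.073 and an adjusted p of 0.00143 in edgeR, and the slope stayed between 0.33 and 0.38 with each library left out in turn, with an adjusted p of at most 0.00998 from edgeR in all 15 fits.

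*Jun* (ENSMUSG00000052684, chromosome 4 of GRCm38, 95049034 to 95052222, minus strand) encodes the AP-1 subunit c-Jun, which is also active in growing and injured axons. It took the opposite course and was highest at P0. Its level was 29.7, 40.8 and 44.3 CPM in the P0 replicates, and 6.85, 33.2 and 15.2 at P4. At P8 it was 13.5, 12.8 and 22.9 CPM, at P14 3.13, 20.3 and 3.64, and at P21 15, 6.56 and 11.8. The 3 P0 libraries lay above all others but P4 replicate 2, and the 9 libraries from P8 on overlapped. The mean fell from 38.3 ± 7.60 CPM (SD, n = 3) in newborns to 18.4 ± 13.5 on P4 and 16.4 ± 5.67 on P8, and was 9.01 ± 9.75 on P14 and 11.1 ± 4.27 on P21. Its slope of -0.083 had a standard error of 0.029 and an adjusted p of 0.0430 in edgeR, close to the threshold. The share of reads outside annotated genes also moved with age, from 24.1% to 29.8% in the P0 libraries to between 16.7% and 19.1% at P14 and P21, and its part in the trends was not tested. The call for *Jun* rested on P0, and without that time point the slope was -0.049 (adjusted p = 0.454 from edgeR). It was also lost with the replicate number as a block (adjusted p = 0.0675 from edgeR) and in 8 of the 15 fits that left out a library (adjusted p up to 0.0971). P0 was also the only time point captured as clusters of PCs, and the part of this difference in the fall was not tested. *Jun* shares 689 bases with *Junos* on the opposite strand, and the sources used here do not give the strand setting of the counting. *Junos* had 70 counts over all libraries, against 1507 for *Jun*.

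**Figure D2:**
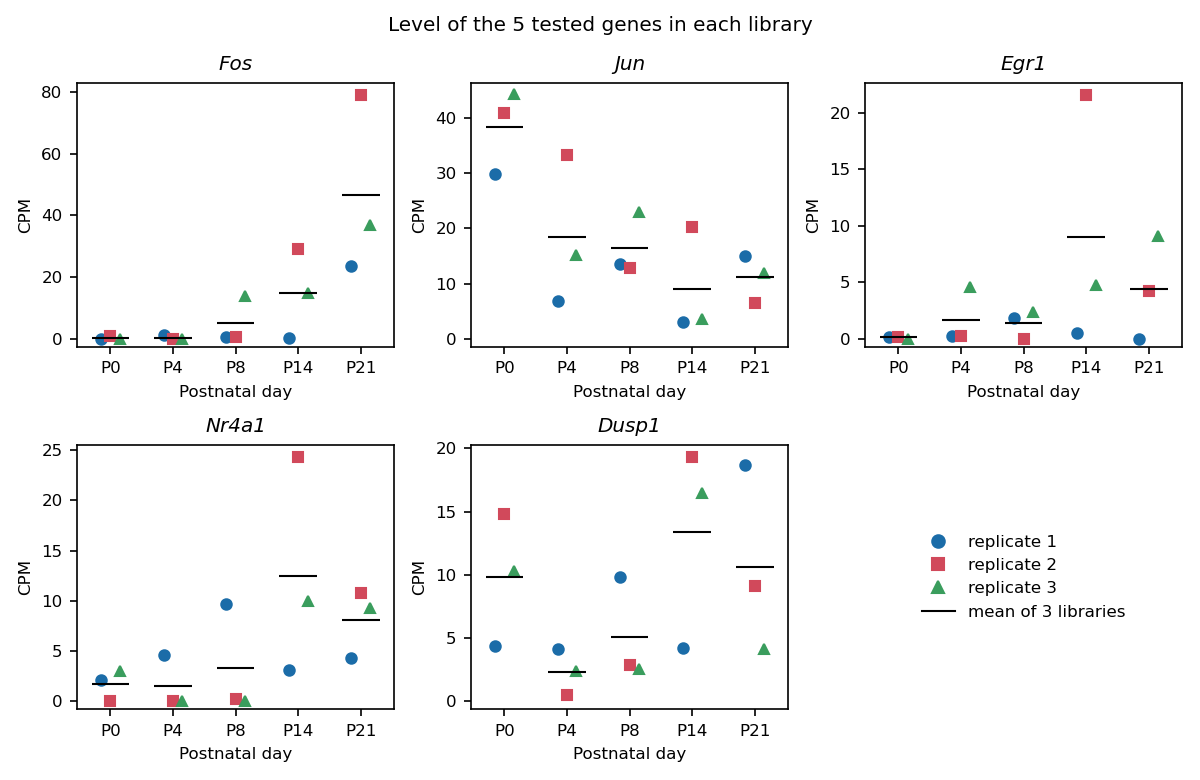
Level in CPM (vertical axes, linear, 1 scale per gene) of the 5 genes that passed the filter on low counts, by postnatal day. Each point is 1 library and each black line the mean of 3 libraries. *Fos* climbs to a mean of 46.5 CPM at P21, *Jun* drops from a mean of 38.3 CPM at P0, and the replicates of *Egr1*, *Nr4a1* and *Dusp1* spread over most of each panel's range at P14.

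The promoter windows of *Fos* and *Jun*, the genes with a trend, are shown with that of *Dusp1*, whose trend was not called and which alone among the genes with a window held the full cyclic AMP response element (CRE), the site bound by CREB. Each window runs from 250 bases before to 50 after the RefSeq start site on GRCm38.p6, 5′ to 3′ on the gene's strand. Capitals mark matches to any of the motifs searched on both strands, which were TGACGTCA (full CRE), TGACG (the CRE core, which the full element also holds), TGANTCA (AP-1 site), GCGNGGGCG (EGR site), TATAAA, the CArG box bound by SRF and the MEF2 site.
*Fos*, chr12:85473640-85473939, plus strand: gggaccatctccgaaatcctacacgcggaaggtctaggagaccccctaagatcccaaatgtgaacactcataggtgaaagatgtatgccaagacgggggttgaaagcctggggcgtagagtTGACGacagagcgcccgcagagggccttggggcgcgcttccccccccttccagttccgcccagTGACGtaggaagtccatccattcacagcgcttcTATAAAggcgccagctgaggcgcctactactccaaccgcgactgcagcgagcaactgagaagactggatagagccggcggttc
*Jun*, chr4:95052173-95052472, minus strand: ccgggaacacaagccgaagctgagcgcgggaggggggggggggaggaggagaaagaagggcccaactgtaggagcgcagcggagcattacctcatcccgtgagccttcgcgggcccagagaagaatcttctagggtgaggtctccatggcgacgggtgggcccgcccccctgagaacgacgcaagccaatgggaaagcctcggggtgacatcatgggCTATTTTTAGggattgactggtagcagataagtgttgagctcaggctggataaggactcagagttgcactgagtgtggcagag
*Dusp1*, chr17:26508423-26508722, minus strand: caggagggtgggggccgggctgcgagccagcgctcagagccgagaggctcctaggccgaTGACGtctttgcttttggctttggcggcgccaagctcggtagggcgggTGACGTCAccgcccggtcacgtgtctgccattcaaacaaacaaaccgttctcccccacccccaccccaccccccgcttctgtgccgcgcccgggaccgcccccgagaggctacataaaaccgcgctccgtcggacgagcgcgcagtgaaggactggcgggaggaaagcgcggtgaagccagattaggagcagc

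The window of *Fos* held CRE cores starting at -129 and -66, counted from the start site, and TATAAA starting at -33. The window of *Jun* held neither, and its match was a MEF2 site starting at -33. The full CRE of *Dusp1* started at -143. Windows were present for 7 of the 10 genes, and *Egr1*, *Egr3* and *Arc* had none. A CRE core was found in 6 of these 7 windows, against 20.8% of the 32851 windows in the RefSeq table, the full CRE in 1 (1.79% of all windows), the EGR site in 2 (5.55%), TATAAA in 2 (13.6%) and the MEF2 site in 1 (3.19%). No window of the 7 held an exact match to the AP-1 site (7.81% of all windows) or the CArG box (1.63%). Sites farther from the start site and variants of these letters were not searched. The search therefore cannot show that these genes lack such sites. *Nr4a1* had the most CRE cores, 4. A match describes these letters only, and binding was not measured.

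**Figure D3:**
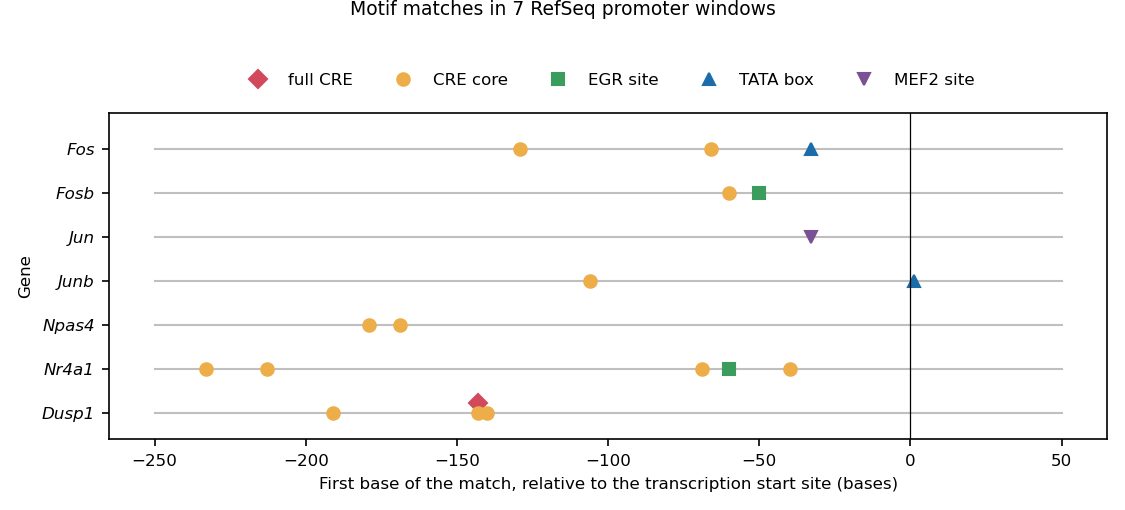
Position of motif matches in the 7 promoter windows (rows), in bases from the RefSeq transcription start site (horizontal axis), on either strand. Each symbol is the first base of a match. CRE cores appear in 6 rows, with 4 in *Nr4a1*, and *Jun* shows a single MEF2 site.

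Among the other AP-1 genes, *Fosb*, a close relative of *Fos* whose truncated product accumulates with repeated activity, appeared in isolated libraries. It had 30 reads in P8 replicate 1, 15 in P21 replicate 1, 1 in P4 replicate 2 and no read in the other 12 libraries. P8 replicate 1 thus held 65.2% of all its reads, and its levels there and in P21 replicate 1 were 6.04 and 5.0 CPM. *Junb*, whose product often restrains c-Jun, had no read in the 6 P0 and P4 libraries. It had 9, 7 and 0 reads in the P8 replicates, 1, 4 and 5 at P14 and 0, 12 and 0 at P21, so that its mean did not exceed 1.05 ± 0.938 CPM (SD, n = 3), at P8. *Junb* shares 351 bases with *Prdx2* on the opposite strand, an abundant gene with 68491 counts over all libraries. In a fit without the filter, the slopes were 0.16 for *Fosb* (adjusted p = 0.472 from edgeR) and 0.20 for *Junb* (adjusted p = 0.281).

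*Egr1* encodes a zinc finger factor that answers to MAP kinase signalling and is linked to lasting synaptic change. It was scarce in the first week and most abundant at P14, with wide spread. Its level was 0.192, 0.198 and 0 CPM at P0, 0.245, 0.258 and 4.62 at P4, and 1.81, 0 and 2.35 at P8. At P14 it was 0.551, 21.6 and 4.79 CPM, and at P21 0, 4.23 and 9.12. P14 replicate 2 alone held 113 of its 272 reads, and the time points overlapped, since a P21 library had no read. The slope of 0.21 (standard error 0.098) was not called (adjusted p = 0.125 from edgeR). Only without P4 replicate 3, the one early library with more than 2 reads, did it pass (slope 0.30, adjusted p = 0.0472). *Egr3*, a relative that is induced by the same signals, had 0 reads in all 15 libraries, which places it below 3 counts in each.

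*Npas4*, a bHLH-PAS factor induced selectively by calcium entry in neurons, did not follow *Fos*. It had 15 reads in P0 replicate 2, 6 in P4 replicate 2, 1 in P14 replicate 1, and 2 and 4 reads in P21 replicates 1 and 2. The remaining 10 libraries had none, and its highest level, 2.97 CPM, was at P0. *Nr4a1* encodes the orphan nuclear receptor Nur77. Its level was 2.11, 0 and 3.03 CPM at P0, 4.65, 0 and 0 at P4, and 9.66, 0.190 and 0 at P8. All 6 P14 and P21 libraries had reads, with 3.13, 24.3 and 9.97 CPM at P14 and 4.33, 10.8 and 9.28 at P21. The ranges still overlapped, because P4 replicate 1 stood above P14 replicate 1 and P21 replicate 1. The mean was 1.71 ± 1.55 CPM (SD, n = 3) at P0 and 8.13 ± 3.38 at P21. The slope of *Nr4a1*, 0.15 (standard error 0.084), was not called by edgeR (adjusted p = 0.208), whereas limma-voom called a slope of 0.23 (adjusted p = 0.0178).

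*Arc* encodes a protein that travels to active synapses and drives removal of AMPA receptors, and in PCs it takes part in long-term depression. No read of *Arc* was found at P0 or P4. Single libraries held it later, with 7 reads in P8 replicate 3, 41 in P14 replicate 3, 24 in P21 replicate 1 and 5 in P21 replicate 3, at levels of 1.26, 7.86, 8.0 and 0.80 CPM. The other 5 libraries from P8 on had none, so that even at P14 and P21 detection varied between replicates. *Arc* did not pass the filter. Without a filter its slope was 0.38 (adjusted p = 0.037 from edgeR), a fitted value that depends on how libraries without reads are treated. With a library left out, the smallest time point has 2 samples and the filter admits more genes, and *Arc* then entered all fits but those without P14 replicate 3 or P21 replicate 1, the libraries with most of its reads. Calls in those fits are therefore not read as support for a rise.

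*Dusp1*, whose product switches off MAP kinases and so limits the induction of the others, was present at all ages. Its level was 4.41, 14.8 and 10.3 CPM at P0, 4.16, 0.517 and 2.39 at P4, and 9.86, 2.86 and 2.53 at P8. At P14 it was 4.23, 19.3 and 16.5 CPM, and at P21 18.7, 9.10 and 4.16. Levels were lowest on average at P4, with a mean of 2.36 ± 1.82 CPM (SD, n = 3), and highest at P14, with 13.3 ± 8.02. All 3 P4 libraries lay below the lowest P0 library by a narrow margin (at most 4.16 against 4.41 CPM, 17 against 23 reads). The share of all genes separated in this way was not counted, and the step from P0 to P4 was not called (adjusted p = 0.357 from edgeR). P8, P14 and P21 overlapped with P0. No trend was called for *Dusp1* (slope 0.041, standard error 0.042, adjusted p = 0.532 in edgeR). Without P0 its slope was larger, 0.14, and was not called either (adjusted p = 0.1345 from edgeR). The annotated span of *Dusp1* overlaps the start of *Ergic1* by 640 bases on the opposite strand.

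When the time point was entered as a factor, so that any pattern of change counted, *Fos* alone among the 5 tested genes was called (edgeR, adjusted p = 0.0227), while 19.3% of all genes tested were. The call for *Fos* was lost without P21 replicate 2, the library with its highest level (adjusted p = 0.0983), and *Jun*, with an adjusted p of 0.213 in the full fit, was called without P14 replicate 2 (adjusted p = 0.0377). None of the 5 genes changed between neighbouring time points in edgeR's test, with 0 also at an unadjusted p below 0.05 in each of the 4 steps. DESeq2 called none either, with 1 gene below an unadjusted p of 0.05 from P0 to P4 and 1 from P4 to P8, nor did limma-voom, with 1 from P8 to P14. The share of all genes called was 1.97% from P0 to P4, 1.13% from P4 to P8, 2.67% from P8 to P14 and 0.329% from P14 to P21. For *Fos*, the fitted difference from P4 to P8 was 3.79 log2 units with a standard error of 1.79 (adjusted p = 0.423 from edgeR), and it rested on 5 reads in 1 P4 library and on P8 replicate 3, which held 77 of the 84 reads at P8. The differences were 1.53 (standard error 1.5) from P8 to P14 and 1.65 (standard error 1.49) from P14 to P21. The first step of *Jun*, from P0 to P4, was -1.05 log2 units (standard error 0.74, adjusted p = 0.588 from edgeR).

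The spread between replicates differed among the genes. edgeR's biological coefficient of variation, which measures it relative to the mean, was 1.27 for *Fos*, 1.40 for *Egr1*, 1.53 for *Nr4a1*, 0.786 for *Dusp1* and 0.617 for *Jun*, against a median of 0.572 over the genes tested. *Fos*, *Egr1* and *Nr4a1* varied more than 85.0%, 88.2% and 90.5% of those genes, and *Jun* more than 53.7%. *Jun* also had the highest average level of the 5, above 45.8% of the genes tested, whereas *Egr1* lay above 14.8% of them. The part of low counts in this spread was not tested.

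At P14 the 5 genes that passed the filter ranked the 3 libraries alike, an order noticed after the values were seen and not tested. Replicate 2 was highest and replicate 1 lowest for *Fos*, *Jun*, *Egr1*, *Nr4a1* and *Dusp1*, whereas this order held for 15.6% of all genes tested. It held for 4 of 15 of the other early transcription factors, 5 of 23 effector genes and 2 of 20 upstream regulators. At no other time point did 1 library hold the highest level of more than 3 of the 5 genes. For *Jun* at P14, replicates 1 and 3 lay close together, with 17 and 19 reads (3.125 and 3.643 CPM). The genes that did not pass the filter did not show the order. *Arc* had 0, 0 and 41 reads in P14 replicates 1 to 3, *Junb* 1, 4 and 5, and *Npas4* 1, 0 and 0. *Fosb* and *Egr3* had no read at P14. Granule neuron markers at P14 summed to 146 CPM in replicate 1, 365 in replicate 2 and 164 in replicate 3, and microglial markers to 6.62, 25.3 and 9.01. The PC markers were 35170, 30700 and 36050 CPM, the glial markers 6458, 6653 and 6882, the oligodendrocyte markers 419, 436 and 418, and the vascular markers 39.7, 36.3 and 25.5. The part of these cells in the order was not tested.

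The order of the genes by level, compared per length as RPKM (counts scaled by exon length and by the library's total on genes), turned over between the first and the third week. At P0, *Jun* led with an RPKM of 13.5 ± 2.73 (SD, n = 3), followed by *Dusp1* with 3.34 ± 1.79 and *Nr4a1* with 0.546 ± 0.496, and the libraries of these 3 genes did not overlap. *Fos* stood at 0.158 ± 0.274. *Jun* still led at P4 (5.93 ± 4.05) and P8 (5.34 ± 1.84). At P14, *Fos* (5.97 ± 5.90), *Dusp1* (3.80 ± 2.32), *Nr4a1* (3.36 ± 2.96), *Jun* (2.68 ± 2.94) and *Egr1* (1.90 ± 2.38) overlapped and did not differ beyond their spread. At P21, *Fos* led with an RPKM of 17.1 ± 10.3, ahead of *Jun* with 3.07 ± 1.21, *Dusp1* with 2.81 ± 1.96 and *Nr4a1* with 2.02 ± 0.819, and the last 3 overlapped. *Egr1* and *Arc* followed with 0.873 ± 0.910 and 0.846 ± 1.27.

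Other genes of the class were examined as 3 lists. Of 20 further transcription factors and co-factors induced early, 15 were tested, 1 rose and none fell, with a median slope of 0.028 log2 units per day against -0.0077 over all genes tested, of which 12.1% rose and 14.1% fell. The gene that rose was *Per1*, a clock gene with a CRE-driven promoter, from 5.07 ± 4.32 CPM (SD, n = 3) at P0 to 43.4 ± 17.5 at P21 (slope 0.13, standard error 0.033, adjusted p = 0.00531 from edgeR). *Nr4a2* and *Nr4a3*, the relatives of *Nr4a1*, had slopes of 0.13 and 0.099 that were not called (adjusted p = 0.0819 and 0.263 from edgeR), and *Jund*, a further AP-1 gene of the Jun family, had a slope of 0.0032 (standard error 0.021, adjusted p = 0.935). *Fosl1* had no read in any library, and *Egr2* had reads in P8 replicate 1 only. These genes outside the naming rule were picked as the closest relatives of the 10, after their values were seen.

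Of 25 activity-induced effector genes, 23 were tested, 4 rose and 1 fell, with a median slope of 0.028. Together 26.2% of all genes tested were called, so the 5 calls are near the background. *Ier3*, a regulator of survival signalling, rose from 0.778 ± 0.655 CPM (SD, n = 3) at P0 to 78.55 ± 29.0 at P21 (slope 0.27, adjusted p = 2.27e-04 from edgeR). *Trib1*, a pseudokinase, rose from 18.1 ± 11.5 to 131.0 ± 42.55 (slope 0.15, adjusted p = 3.38e-05), and *Errfi1*, an inhibitor of the EGF receptor, from 17.5 ± 10.7 to 61.7 ± 4.09 (slope 0.10, adjusted p = 0.00214). The other gene that rose was *Nrn1*, which encodes neuritin and fell outside the naming rule (slope 0.088, adjusted p = 0.0195 from edgeR). *Plk2*, a kinase that weakens overactive synapses, fell from 46.5 ± 30.9 CPM at P0 to 11.6 ± 9.53 at P21 (slope -0.099, adjusted p = 0.0429 from edgeR), a call that was lost with the replicate block (adjusted p = 0.0608).

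Of 20 upstream regulators, all 20 were tested, 1 rose and none fell, against 12.1% and 14.1% of all genes tested, with a median slope of 0.0096. The slopes of *Creb1* (-0.021, standard error 0.018, adjusted p = 0.417 from edgeR) and *Srf* (0.081, standard error 0.047, adjusted p = 0.235) were not called. Both were picked for naming after their values were seen, as the factors bound to the CRE and the CArG box.

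**Figure D4:**
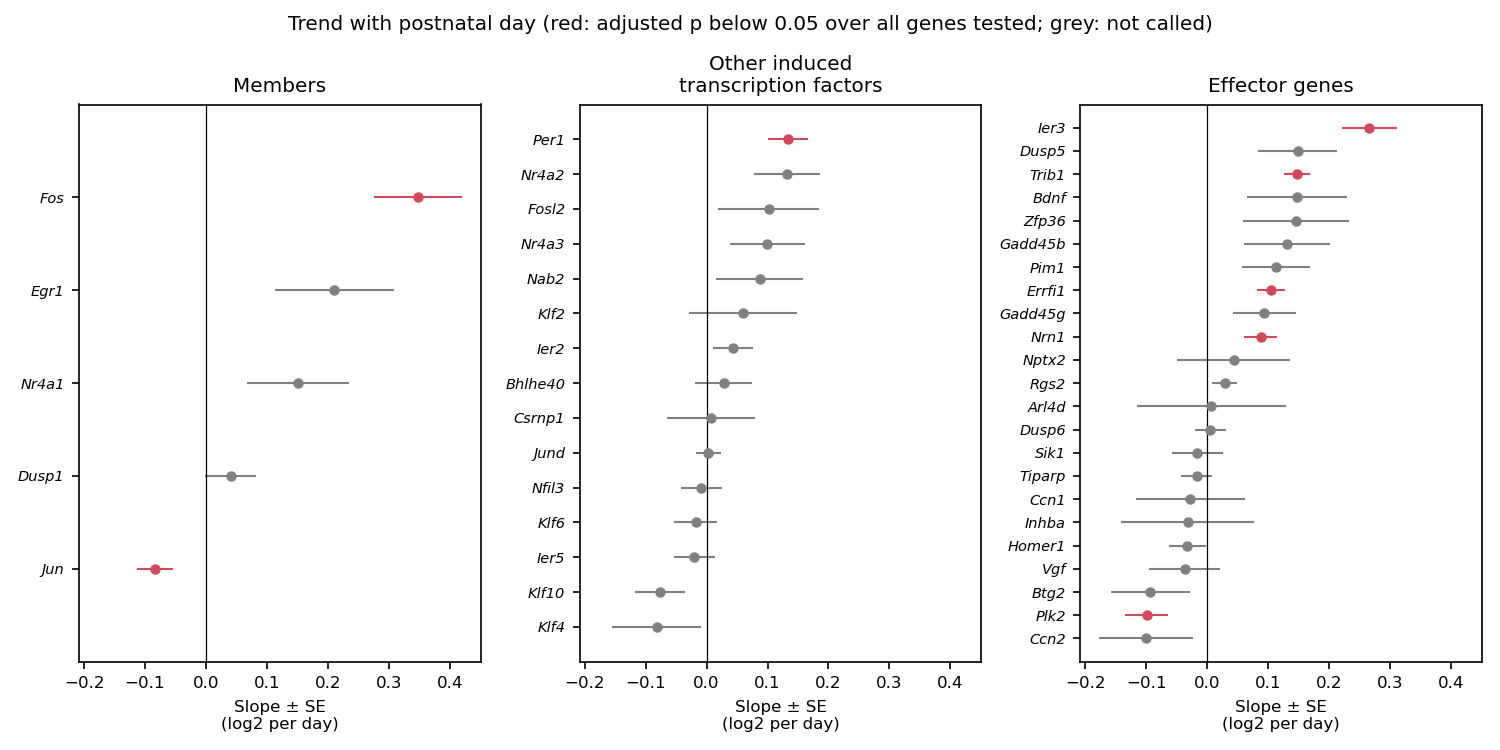
Slope with postnatal day in log2 units per day (horizontal axes, shared scale) for each tested gene of the 10, of the other early transcription factors and of the effector genes, with bars of 1 standard error. Red points have an adjusted p below 0.05 over all genes tested. *Fos* lies farthest to the right at 0.35, and 2 of 5, 1 of 15 and 5 of 23 genes are red.

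The genes most like the mean standardised profile of the 5 tested genes over the 15 libraries were *Jade2* (Pearson r = 0.824), *Phex* (0.802), *Prss16* (0.793), *Crtam* (0.788) and *Gm14388* (0.785), with log2 CPM as the measure. Within each library all genes share its depth and scaling. The first 4 genes had no read in at least 1 library and at most 83 reads in any. Over all 15 libraries, *Jun* correlated negatively with each of the other tested genes (Pearson r from -0.456 with *Nr4a1* to -0.110 with *Dusp1*). The mean profile is therefore not a course shared by all of them. Within time points, r of *Jun* was 0.290 with *Fos*, 0.305 with *Egr1*, -0.019 with *Dusp1* and -0.168 with *Nr4a1*. The values are a description without a test.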

How the data were processed

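The 15 libraries of laser-captured mouse PCs (P0, P4, P8, P14 and P21, 3 per time point) were used. The authors trimmed the reads (cutadapt 1.2.1), aligned them to mm10 with GSNAP and, from the reads that mapped uniquely, made counts for each Ensembl gene by HTSeq 0.5.3p9 in intersection-strict mode. The deposited values are these raw counts, 1 library per sample, without normalization. The annotation release and strand setting used for counting are not given in the sources used here. Reads outside annotated genes (16.7% to 29.8% of the tallied reads) and ambiguous reads (1.16% to 1.57%) stayed out of library sizes and tests.

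Everything else was computed from the counts. Groups and replicate numbers came from the sample titles. edgeR 4.0.16 in R 4.3.3 was used with TMM, filterByExpr by time point and quasi-likelihood F tests of the day as a number, of the time point as a factor and of neighbouring time points, each adjusted by Benjamini-Hochberg over 14293 genes at 0.05. Standard errors were derived from the estimate and its F statistic. Correlation with the mean profile used log2 CPM with a prior count of 2. The scripts were tested on simulated counts, with a smaller spread between replicates than in these libraries. No pair of replicates agreed within sampling noise, so each library was counted as a separate sample. P-values judge each change against the spread between these libraries. GENCODE M21 (GRCm38) gave symbols, positions and lengths of exons, and promoter windows came from RefSeq on GRCm38.p6.

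The genes named are the 10 genes, up to 3 rising and 3 falling genes with the largest called slope from each list, and the 5 genes with the most similar profile, plus those said to have been picked later. 1 gene that the rule selects is not reported here. The 10 genes and the lists were chosen with earlier results of these data known. Alternatives covered DESeq2 size factors, no filter, DESeq2 1.42.0, limma-voom (limma 3.58.1), the replicate block, log2(day + 1), the P0 time point, each library left out and CPM on total counts.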

Additional observations from a re-analysis of the deposited data

How the results depend on the processing

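When the replicate number entered the model as a block, 1723 genes rose and 1911 fell with day, no tested gene of the 10 fell, no effector gene fell and 2 upstream regulators rose, while *Fos* stayed called (slope 0.34, adjusted p = 0.00182 from edgeR). Same-numbered libraries did not deviate together (r between -0.0316 and 0.0472), so the numbers were not taken as pairs. The number of the 10 genes that rose was 2 without a filter (*Fos* and *Arc*) and 2 with limma-voom (*Fos* and *Nr4a1*, whose slope was 0.23), and between 1 and 2 with each library left out. The number that fell was 0 without P0 and between 0 and 1 with each library left out. For the joint test of the time points, between 0 and 2 of the 10 genes were called with each library left out. Among the other early transcription factors, 2 rose with DESeq2, 4 with limma-voom, 2 without P0, and 1 to 2 with each library left out. No effector gene fell with limma-voom or with log2(day + 1), and 0 to 1 with each library left out. Among the upstream regulators, 2 rose with DESeq2, 2 with limma-voom, 3 without P0, and 1 to 2 with each library left out. For *Jun*, adjusted p was 0.0603 without P0 replicate 1, 0.0890 without P0 replicate 2, 0.0971 without P0 replicate 3, 0.0601 without P4 replicate 2, 0.0534 without P14 replicate 1, 0.0577 without P14 replicate 3, 0.0949 without P21 replicate 2 and 0.0547 without P21 replicate 3. No slope of the 5 tested genes changed sign under any of these alternatives, and scaling CPM by total counts moved no mean level of the 10 genes by more than its SD. The causes of these differences were not tested, apart from the filter, which admits genes with reads in fewer libraries when one is left out.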

Other observations

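Replicates of 1 time point differed between no read and many reads in these 3 cases, which were picked after the values were seen. *Fosb* had 30 reads in 1 P8 library and none in the other 2, *Arc* had 41 reads in 1 P14 library and none in the other 2, and *Nr4a1* had 19 reads in 1 P4 library and none in the other 2.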
